A study of Mus musculus with 6 samples.

Results

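The genes of the cornified envelope and of the enzymes that crosslink it were compared between Pax6 heterozygous mutant and wildtype mouse corneas. Members were taken by symbol: the small proline-rich (Sprr), late cornified envelope (Lce), transglutaminase (Tgm) and peptidylarginine deiminase (Padi) families, together with Flg, Flg2, Lor, Ivl, Sbsn, Krtdap, Hrnr, Rptn, Crnn, Cnfn, Cdsn, Evpl, Ppl and Calm4. Of the 64 annotated genes with such a symbol, the 2 that are not protein-coding (Sprr2c-ps and Sprr2g) were left out, and the 62 members were all among the 55421 genes counted. They comprise 15 Sprr genes, 21 Lce genes, 5 S100-fused genes, 6 other precursors, 2 plakins, 7 transglutaminases, 5 deiminases and Calm4. Corneal RNA of mice aged 20 weeks was sequenced, with 3 libraries from animals heterozygous for a Pax6 mutation (M1 to M3) and 3 from wildtype (WT) animals (W1 to W3). The labels name neither the mutant allele nor the strain, and the series design calls the libraries biological replicates.

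The cornified envelope is a protein shell built under the plasma membrane of keratinocytes as they die at a surface. The plakins envoplakin and periplakin form its first scaffold, and transglutaminases then crosslink involucrin, loricrin and small proline-rich proteins onto it. Peptidylarginine deiminases convert arginine in proteins to citrulline, which in skin loosens filaggrin and keratins for processing. The corneal epithelium is stratified but normally stays unkeratinized. Pax6 is a transcription factor of eye development that the adult corneal epithelium also needs, and humans with 1 lost copy develop aniridia and a keratopathy.

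Gene counts ran from 16858005 to 21846406 per library, and values are given as CPM, the usual scale of counts relative to library size, here after scaling for composition. The mutant libraries held 7411, 7093 and 7914 Pax6 counts, against 14970, 13141 and 14465 in the WT libraries. Pax6 averaged 399 ± 45.6 CPM in mutant and 789 ± 45.0 CPM in WT corneas (SD, n = 3 each). Its log2 fold change, mutant over WT, was -0.98 ± 0.12 (SE; edgeR adjusted p = 9.97e-05, from its quasi-likelihood test with p-values adjusted over all genes by the Benjamini-Hochberg method). W1 stood apart from the other 5 libraries on the first principal component, and M1 was the only library with high Xist and no Y-linked counts. A sex covariate therefore fits M1 alone and cannot separate sex from that library. Values of members without W1 or M1 are given where they end or make a call, turn a direction or move by over 1.5 times. Single genes of the other lists below carry no such values, so their dependence on W1 or M1 is not shown. In bulk RNA, fewer cells of a type and less RNA per cell cannot be told apart, which holds for each result here.

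The promoters of 4 genes that differed between the genotypes are shown because the results turn on them: Padi1 and Padi4, deiminases of 1 gene cluster on chromosome 4 that differed in opposite directions, and Sprr1a and Sbsn, the precursors that rose. Each is printed 5′ to 3′ on the gene's strand from 250 bases before to 20 bases after the annotated start, from RefSeq on GRCm38.p6. Capitals mark the AP-1 motif TGANTCA and the TATA box TATAAA on either strand.
Padi1: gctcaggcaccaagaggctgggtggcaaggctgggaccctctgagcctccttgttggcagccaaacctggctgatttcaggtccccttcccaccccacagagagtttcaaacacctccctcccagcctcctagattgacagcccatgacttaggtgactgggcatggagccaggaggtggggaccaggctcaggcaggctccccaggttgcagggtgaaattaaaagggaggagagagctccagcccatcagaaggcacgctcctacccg
Padi4: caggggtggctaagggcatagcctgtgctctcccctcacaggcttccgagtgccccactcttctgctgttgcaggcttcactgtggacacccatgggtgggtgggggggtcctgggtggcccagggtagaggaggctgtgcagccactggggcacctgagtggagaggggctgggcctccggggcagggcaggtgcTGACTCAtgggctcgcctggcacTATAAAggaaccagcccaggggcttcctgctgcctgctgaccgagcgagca
Sprr1a: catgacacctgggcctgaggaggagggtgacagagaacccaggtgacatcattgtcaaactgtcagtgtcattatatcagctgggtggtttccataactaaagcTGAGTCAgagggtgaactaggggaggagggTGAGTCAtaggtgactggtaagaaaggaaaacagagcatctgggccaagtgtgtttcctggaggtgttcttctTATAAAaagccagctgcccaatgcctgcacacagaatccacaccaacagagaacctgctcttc
Sbsn: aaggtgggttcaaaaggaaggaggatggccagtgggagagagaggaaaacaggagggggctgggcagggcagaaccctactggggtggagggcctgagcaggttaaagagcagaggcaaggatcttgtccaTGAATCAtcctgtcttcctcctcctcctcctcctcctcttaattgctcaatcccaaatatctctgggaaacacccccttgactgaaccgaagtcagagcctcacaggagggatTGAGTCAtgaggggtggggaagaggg
These windows lie at chr4:140845759-140846028 (minus strand) for Padi1, chr4:140774184-140774453 (minus strand) for Padi4, chr3:92485862-92486131 (minus strand) for Sprr1a and chr7:30751221-30751490 (plus strand) for Sbsn. Counted from the start, the first base of an AP-1 match lay at -146 and -116 in Sprr1a, at -119 and -6 in Sbsn and at -54 in Padi4. A TATAAA match began at -43 in Sprr1a and at -31 in Padi4. The Padi1 window held neither motif, and neither did that of Tgm5.

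Over all members, 57 of 62 genes had an entry in the promoter table, with 60 promoters between them; Evpl, Ppl, Tgm2, Lce1f and Sprr2j-ps had none. The full windows of 300 bases, reaching 50 bases past the start, were searched on both strands and no motif contains another. TGANTCA was found in 18 of the 60 member promoters and in 7.81% of the 32851 mouse promoters of the same length. TATAAA was found in 24 of the 60, against 13.6% of all. The GC box GGGCGG was found in 6 of the 60, against 35.7% of all promoters, the CACCC box CCACCC in 21 against 31.5%, and the Ets core AGGAAG in 31 against 35.4%. The members are clustered, related genes, so these shares are a description; a match is not evidence of binding.

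Of the 62 members, 36 had at least 1 count in any library, 19 had at least 10 counts in all, and 26 had none. With no low-count filter, 4 members rose in mutant corneas (Padi1, Sprr1a, Tgm5 and Sbsn) and 1 fell (Padi4) at an adjusted p of 0.05. In the same test 6.78% of 28717 genes were called, 4.13% as higher and 2.65% as lower in the mutant. The 5 called members are 13.9% of the 36 with a count, a share above the background that rests on few genes and was not tested. With edgeR's filterByExpr, 14 members and 15209 genes were tested, the same 5 members were called, and 13.1% of all genes were called, 7.73% as higher and 5.38% as lower. The median log2 fold change was 0.23 over the 36 members with a count and -0.03 over all genes. The 3 mutant libraries all lay above the 3 WT libraries for 4 members, and all below them for 4 others (Padi4, Ivl, Tgm2 and Lce3a); over all genes this held for 19.9%, made up of 11% above and 8.85% below. Among genes kept by filterByExpr it held for 31.8%, 16.8% above and 15% below.

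**Figure D1:**
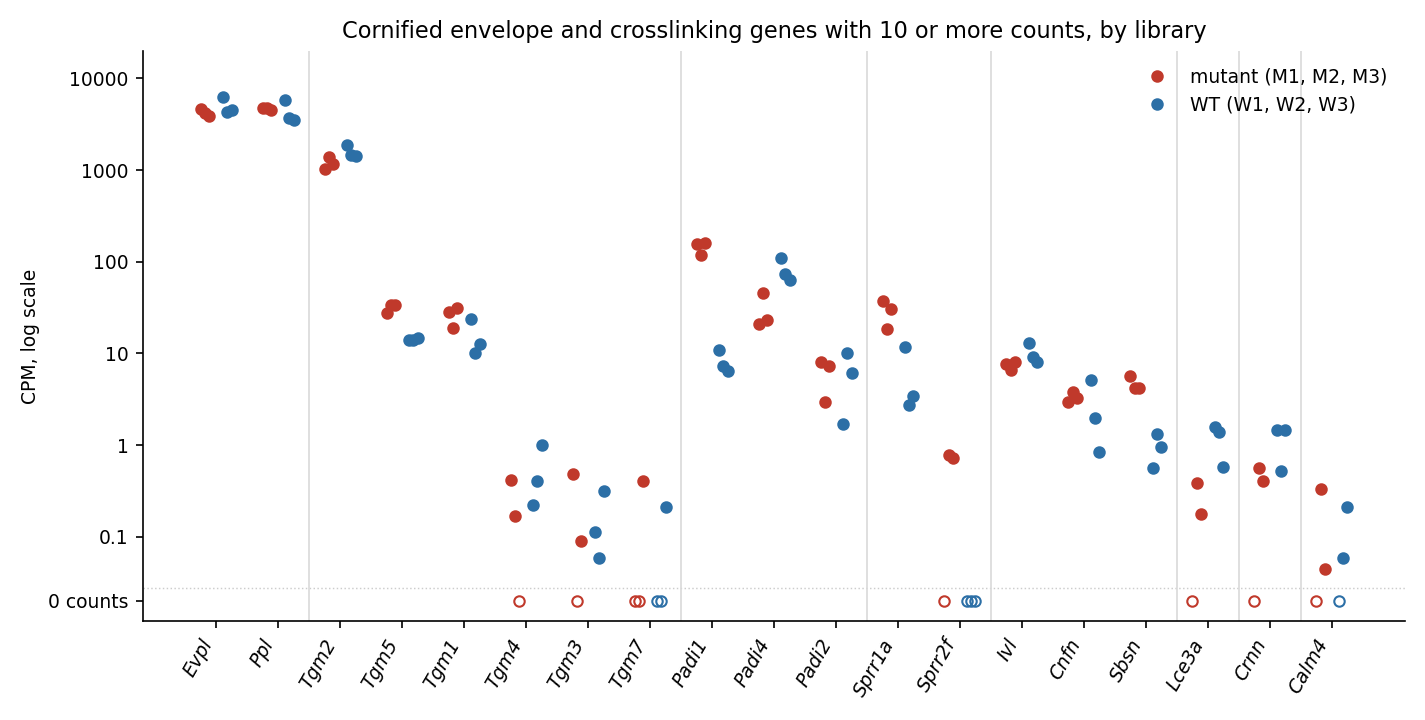
CPM of the 19 members with at least 10 counts, by library, on a log scale (red, mutant M1 to M3; blue, WT W1 to W3; open circles on the lowest line, 0 counts; grey lines separate the role groups). The plakins and Tgm2 sit above 1000 CPM in all 6 libraries, and the 3 mutant libraries of Padi1 lie far above its WT libraries.

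Per kilobase of exon, the envelope genes of the cornea were led by the scaffold and by 1 crosslinker in both genotypes. Among the 19 members with at least 10 counts, mean levels in mutant corneas were 677 ± 13.9 CPM per kilobase for Ppl, 668 ± 63.9 for Evpl and 260 ± 40.8 for Tgm2 (SD, n = 3). In WT corneas they were 631 ± 183 for Ppl, 788 ± 172 for Evpl and 343 ± 53.2 for Tgm2 (SD, n = 3). Below these, Padi1 held rank 4 in mutant corneas, at 38.4 ± 6.0 CPM per kilobase, and rank 10 in WT corneas, at 2.18 ± 0.65 (SD, n = 3 each). Padi4 held rank 8 in mutant corneas, at 6.14 ± 2.77, and rank 4 in WT corneas, at 16.9 ± 5.07. Sprr1a averaged 35.9 ± 12.0 in mutant and 7.47 ± 6.29 in WT corneas. In the mutant, the SDs of Padi1 and Sprr1a overlapped, as did those of Ppl and Evpl, so the order within these pairs was not resolved. The mutant SD of Padi4 spanned the means of Tgm1, Cnfn and Ivl, and that of Tgm1 spanned the mean of Tgm5. The order of ranks 6 to 10 was therefore not resolved either. In WT corneas the SD of Sprr1a spanned the means of Ivl, Tgm1, Tgm5, Cnfn, Padi1, Lce3a and Padi2. The order of ranks 5 to 12 was therefore not resolved there. The SDs of Padi4 and Sprr1a also overlapped in WT corneas, as did those of Ppl and Evpl.

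The peptidylarginine deiminases held the called member with the largest fold change and the called member that fell. Padi1, the deiminase that acts on keratins and filaggrin in upper epidermal layers, had 155, 118 and 160 CPM in the mutant libraries, against 11, 7.23 and 6.36 CPM in the WT libraries. Every mutant library was far above every WT library. The rise was 17.7-fold, a log2 fold change of 4.14 ± 0.22 (SE; edgeR adjusted p = 4.11e-08, and 3.23e-05 with filterByExpr). It passed under all 25 alternative fits, with log2 fold changes of 3.98 to 4.42. Padi1 spans chr4:140812983-140845778 (GRCm38, minus strand), and 1200 bases of its exons overlap the antisense gene Gm13032. Gm13032 had 7, 4 and 8 counts in mutant and 16, 14 and 1 in WT libraries, against 2124 to 3555 Padi1 counts in mutant and 121 to 195 in WT libraries. Since the strand option of the counting is not given, how reads in this overlap were assigned is not known.

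Padi4, a nuclear deiminase known for citrullinating histones, in neutrophils above all, moved the other way. It had 21.0, 45.1 and 23.0 CPM in mutant libraries, against 109, 72.9 and 62.9 CPM in WT libraries. The groups did not overlap, and M2 lay nearest to WT. The log2 fold change was -1.46 ± 0.27 (SE; edgeR adjusted p = 0.0027, and 0.014 with filterByExpr), a fall to 0.363 of the WT level. The call is less firm than that of Padi1: it missed the threshold in 5 of 25 alternative fits. Of these, the fit with sex as a covariate marks M1 alone, so it does not adjust for sex apart from that library. The edgeR adjusted p was 0.055 with sex as a covariate, 0.063 without M3 and 0.10 without M1 and W1 together; with filterByExpr it was 0.057 without M1 and 0.073 without M3. The 10 leukocyte markers summed to 178 to 221 CPM in mutant and 33.7 to 50.2 CPM in WT corneas. These markers cover leukocytes in general, not neutrophils alone, and their part in the Padi4 result was not tested. Padi4 lies at chr4:140745865-140774236, also on the minus strand, and shares no window of 100 bases with another transcript.

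Because a ratio of counts within 1 library needs no scaling between libraries, Padi1 was also set against Padi4 in each library. Padi1 made up 88.0%, 72.4% and 87.4% of the Padi1 and Padi4 counts of the mutant libraries, against 9.10%, 9.02% and 9.19% in the WT libraries. The exact 95% binomial intervals, which cover counting error only, ran from 70.8% to 74.0% in the lowest mutant library and from 7.69% to 10.9% in the highest WT library. The WT libraries thus lay close together, W1 included. The ratio of Padi1 to Padi4 counts was 5.65 ± 2.63 in mutant and 0.10 ± 0.0011 in WT corneas (SD, n = 3 each; exact permutation p = 0.1, two-sided, the smallest that 3 against 3 libraries allow). This was 1 of 6 such ratios, all chosen after their values were seen, and all 6 had this p (0.1 after Benjamini-Hochberg adjustment).

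**Figure D2:**
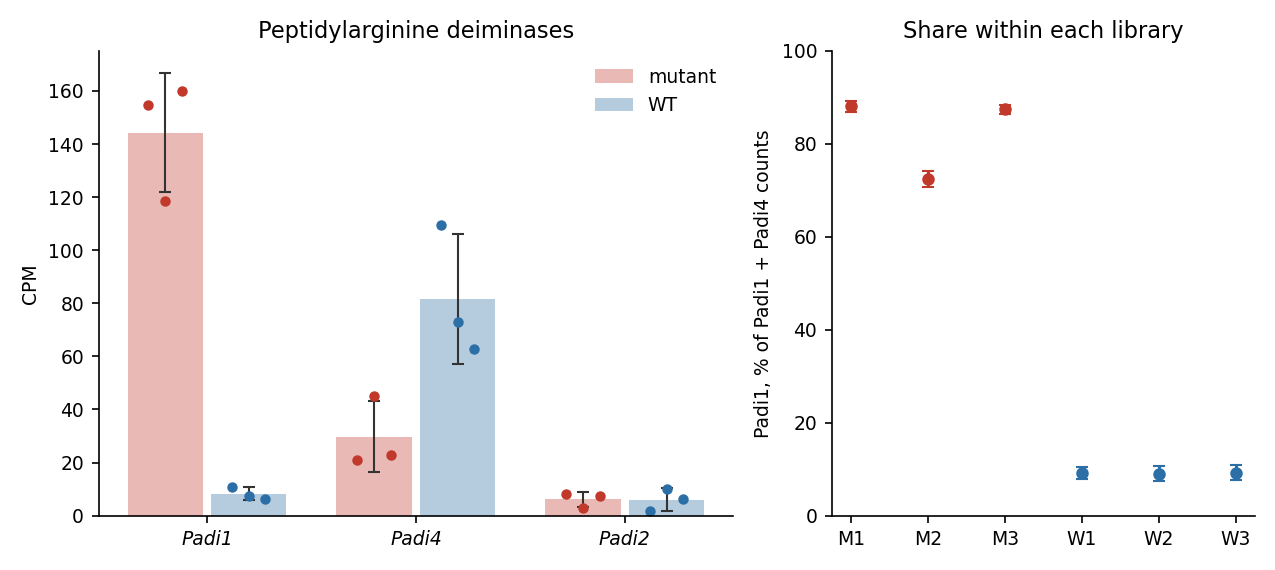
Left, CPM of Padi1, Padi4 and Padi2 in mutant (red) and WT (blue) corneas (points, libraries; bars, mean; whiskers, SD, n = 3 each). Right, Padi1 as a percentage of Padi1 plus Padi4 counts in each library with its exact 95% binomial interval: 72.4% or more in the mutant libraries and 9.19% or less in the WT libraries.

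The other deiminases were low. Padi2, which is widely expressed in other tissues, was named after its values were seen: it had 8.02, 2.96 and 7.37 CPM in mutant libraries, against 1.69, 10.2 and 6.10 CPM in WT libraries. The groups overlapped throughout (log2 fold change 0.04 ± 0.48, SE; edgeR adjusted p = 0.98), and the Padi2 fold change was negative without W1 (-0.40) or M1 (-0.18). Padi3, which acts in hair follicles, and Padi6, the oocyte enzyme, had 2 counts each over the 6 libraries. The 5 genes summed to 167 to 190 CPM in mutant and 75.3 to 122 CPM in WT libraries.

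Among the transglutaminases, Tgm5 rose, while the abundant Tgm2 lay lower in the mutant without passing the threshold. Tgm5, which crosslinks loricrin and involucrin in upper epidermis, had 27.6, 33.7 and 34.1 CPM in mutant libraries, against 14, 14.2 and 14.6 CPM in WT libraries. The WT libraries were nearly equal and lay below every mutant library. The rise was 2.24-fold (log2 fold change 1.16 ± 0.20, SE; edgeR adjusted p = 0.0014, and 0.0021 with filterByExpr), and it passed in all 25 alternative fits. Tgm2, the tissue transglutaminase found in many cell types, had 1034, 1404 and 1161 CPM in mutant libraries, against 1864, 1462 and 1420 CPM in WT libraries. The groups stood just apart, M2 and W3 nearly touching, and the difference missed the threshold (log2 fold change -0.40 ± 0.14, SE; edgeR adjusted p = 0.11). Part of the Tgm2 exons, 1003 bases, overlaps genes on the opposite strand, among them Rprd1b.

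Tgm1, the membrane-anchored transglutaminase of keratinocytes, was named after its values were seen. It had 28.6, 18.9 and 31.4 CPM in mutant libraries, against 23.5, 10.1 and 12.7 CPM in WT libraries. M2 lay below W1, so the groups overlapped (log2 fold change 0.77 ± 0.29, SE; edgeR adjusted p = 0.15). Without W1 the log2 fold change was 1.20 (edgeR adjusted p = 0.015), and Tgm1 also passed with edgeR's earlier quasi-likelihood method (0.011), with limma-voom and quality weights (0.043) and without W1 under filterByExpr (0.019), in 4 of 25 alternative fits in all. Tgm3, Tgm4, which is prostatic in rodents, and Tgm7 had 19, 40 and 13 counts over all libraries, and Tgm6 had none. The ratio of Tgm5 to Tgm2 counts was 0.0267 ± 0.0027 in mutant and 0.0092 ± 0.0014 in WT corneas (SD, n = 3 each), and that of Tgm1 to Tgm2 was 0.0227 ± 0.0080 in mutant and 0.0095 ± 0.0029 in WT corneas. Tgm2 nonetheless made up 94.6% to 96.4% of the transglutaminase counts in mutant and 98.0% to 98.3% in WT libraries.

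The plakin scaffold genes did not pass the test. Envoplakin, Evpl, had 4687, 4227 and 3873 CPM in mutant libraries, against 6289, 4297 and 4500 CPM in WT libraries, with M1 above W2 and W3 (log2 fold change -0.24 ± 0.13, SE; edgeR adjusted p = 0.42). Without W1 the Evpl log2 fold change was -0.05 (edgeR adjusted p = 0.76). Periplakin, Ppl, which pairs with envoplakin, had 4743, 4700 and 4559 CPM in mutant libraries, against 5803, 3729 and 3522 CPM in WT libraries. Its mutant libraries lay between W1 and the other WT libraries (log2 fold change 0.10 ± 0.15, SE; edgeR adjusted p = 0.78). Without W1 the Ppl log2 fold change was 0.36 and passed (edgeR adjusted p = 0.0020), as it did without M1 and W1 together (0.014) and without W1 under filterByExpr (0.031). The ratio of Evpl to Ppl counts was 0.988, 0.899 and 0.849 in mutant libraries, against 1.08, 1.15 and 1.28 in WT libraries. All mutant ratios lay below all WT ratios, that of W1 included (exact permutation p = 0.1, two-sided).

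The 2 plakins made up 84.3% to 87.6% of the member counts in mutant and 83.4% to 85.5% in WT libraries. The 62 members took 1.01% to 1.07% of the gene counts in mutant and 0.969% to 1.33% in WT libraries. A sum over the members therefore follows Evpl and Ppl, and it says little of the precursors.

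**Figure D3:**
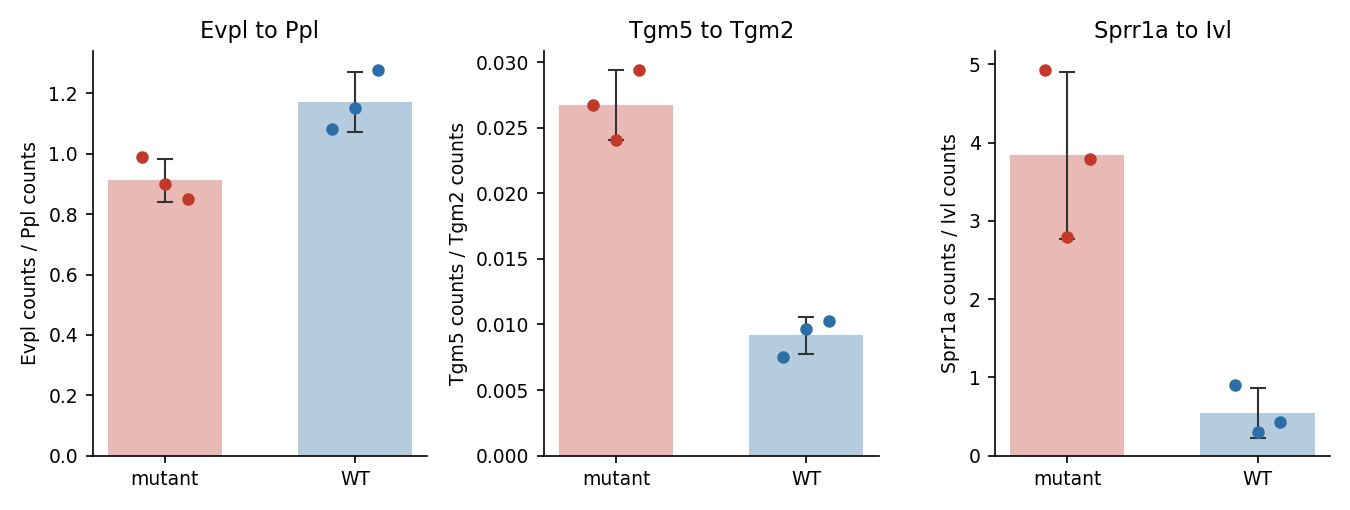
Ratios of counts within each library for Evpl to Ppl, Tgm5 to Tgm2 and Sprr1a to Ivl, mutant left and WT right (points, libraries; bars, mean; whiskers, SD, n = 3 each). In each panel the 3 mutant libraries lie on 1 side of the 3 WT libraries, lower for Evpl to Ppl and higher for the other ratios.

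Of the 15 small proline-rich genes, Sprr1a carried nearly all counts and rose. Sprr1a, a crossbridging precursor induced in stressed squamous epithelia, had 37.7, 18.6 and 30.5 CPM in mutant libraries, against 11.9, 2.74 and 3.47 CPM in WT libraries. The groups did not overlap, and W1 was the highest WT library. The rise was 4.8-fold (log2 fold change 2.26 ± 0.40, SE; edgeR adjusted p = 0.0018, and 0.014 with filterByExpr). Without W1 the log2 fold change was 3.20. The call missed the threshold in 2 of 25 alternative fits, with filterByExpr and without M1 (edgeR adjusted p = 0.053) or M3 (0.055). Sprr1a lies at chr3:92483952-92485895 on the minus strand and shares no window of 100 bases with another transcript. Markers of hyperproliferative or stressed epithelium summed to 4088 to 5008 CPM in mutant and 2881 to 3522 CPM in WT corneas. Of these 6 markers 4 passed as higher, against 4.13% of all genes. With filterByExpr, 2 of the 5 tested passed, against 7.73%. For 2 of the 6 all mutant libraries lay above all WT libraries, against 11% of all genes. The list includes S100a8 and S100a9, which leukocytes also express, and S100a9 was among those that passed. The part of these markers in the Sprr1a result was not tested.

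Sprr2f had 0, 14 and 16 counts in mutant libraries and none in the WT libraries. Its observed mutant mean, 0.50 ± 0.43 CPM (SD, n = 3), was 9.0 times a limit of 3 counts over the WT group. That value leaves out the spread between mutant libraries, so it is no lower bound on the genotype difference. M1 had no counts either, and the difference did not pass (edgeR adjusted p = 0.22). Another 5 Sprr genes had 1 to 3 counts, and 8 had none. A count of 0 over 3 libraries allows up to 0.0529 CPM in mutant and 0.0556 CPM in WT corneas, counting error only. For Sprr2a1 and Sprr2a2 this limit does not apply, since 92.5% and 92.8% of their windows of 100 bases also occur in another transcript, and read pairs that align to several places were not counted. Sprr1b, with no shared window, had no counts.

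Suprabasin, encoded by Sbsn, a secreted precursor of suprabasal epidermis, was the other precursor that rose. It had 5.67, 4.24 and 4.23 CPM in mutant libraries, against 0.562, 1.34 and 0.947 CPM in WT libraries. Every mutant library exceeded every WT library, at low levels: 76 to 94 counts in mutant and 10 to 23 in WT libraries. The rise was 4.91-fold (log2 fold change 2.30 ± 0.48, SE; edgeR adjusted p = 0.0063, and 0.012 with filterByExpr), and it missed the threshold without M1 and W1 together (0.081). Sbsn, at chr7:30751471-30756134 on the plus strand, shares 279 exon bases with Tmem147os. Tmem147os had 14, 23 and 44 counts in mutant and 40, 33 and 25 in WT libraries, with overlapping groups.

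Involucrin, an early precursor encoded by Ivl, was present and did not rise. Ivl had 7.66, 6.64 and 8.05 CPM in mutant libraries, against 13, 9.21 and 8.10 CPM in WT libraries. The mutant values lay just below the lowest WT value (log2 fold change -0.44 ± 0.28, SE; edgeR adjusted p = 0.52). Without W1 the Ivl log2 fold change was -0.21 (edgeR adjusted p = 0.74). Cornifelin, encoded by Cnfn, had 2.95, 3.85 and 3.24 CPM in mutant libraries, against 5.11, 1.98 and 0.842 CPM in WT libraries, which spread more widely than the mutant libraries (log2 fold change 0.35 ± 0.51, SE; edgeR adjusted p = 0.78). Without W1 the Cnfn log2 fold change was 1.27 (edgeR adjusted p = 0.20). The ratio of Sprr1a to Ivl counts was 3.84 ± 1.07 in mutant and 0.545 ± 0.322 in WT corneas, and that of Sbsn to Ivl was 0.635 ± 0.108 in mutant and 0.102 ± 0.0529 in WT corneas (SD, n = 3 each). The remaining precursors were barely detected: loricrin (Lor), the main protein of the skin's envelope, had 2 counts over all libraries, Krtdap 1 and corneodesmosin (Cdsn) 6.

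The late cornified envelope genes, which encode precursors added late in skin, were nearly silent, with 15 of 21 at 0 counts. Lce3a was the exception. It had 0, 7 and 4 counts in mutant libraries, against 28, 24 and 11 in WT libraries. In CPM this was 0, 0.39 and 0.18 in mutant and 1.57, 1.4 and 0.579 in WT libraries. The groups stood apart, and the difference did not pass (log2 fold change -2.55 ± 0.97, SE; edgeR adjusted p = 0.15, and 0.069 with filterByExpr). Lce3b had 8 counts, all in W3, Lce1j had 7, all in M1, and Lce1h, Lce3c and Lce3e had 1 each.

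The S100-fused proteins are large proteins of the upper epidermis, with filaggrin the best known. Cornulin, encoded by Crnn, which is typical of wet squamous epithelia, had 0, 10 and 9 counts in mutant libraries, against 26, 9 and 28 in WT libraries. M2 and W2 overlapped (log2 fold change -1.78 ± 0.89, SE; edgeR adjusted p = 0.35). Filaggrin (Flg) had 1 count and repetin (Rptn) 2 over all libraries, and Flg2 and Hrnr had none. Calm4, a calmodulin-like protein of mouse epidermis, had 0, 6 and 1 counts in mutant libraries, against 0, 1 and 4 in WT libraries.

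By position, 43 of the 62 members lie in the epidermal differentiation complex of chromosome 3, from Lor to Rptn (chr3:92080271-93399442, GRCm38). Of the 43, 5 reached 10 counts over all libraries, namely Sprr1a, Ivl, Sprr2f, Lce3a and Crnn, and 25 had none. The 43 genes held 0.265% of all member counts. Their summed level was 46.0, 27.1 and 40.1 CPM in mutant libraries, against 27.9, 13.9 and 14.3 CPM in WT libraries, with M2 just below W1. Sprr1a and Ivl together made up 93.2% to 98.7% of these counts in mutant and 80.9% to 89.1% in WT libraries. The genes that rose outside the cluster, Padi1, Tgm5 and Sbsn, lie on chromosomes 4, 2 and 7.

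**Figure D4:**
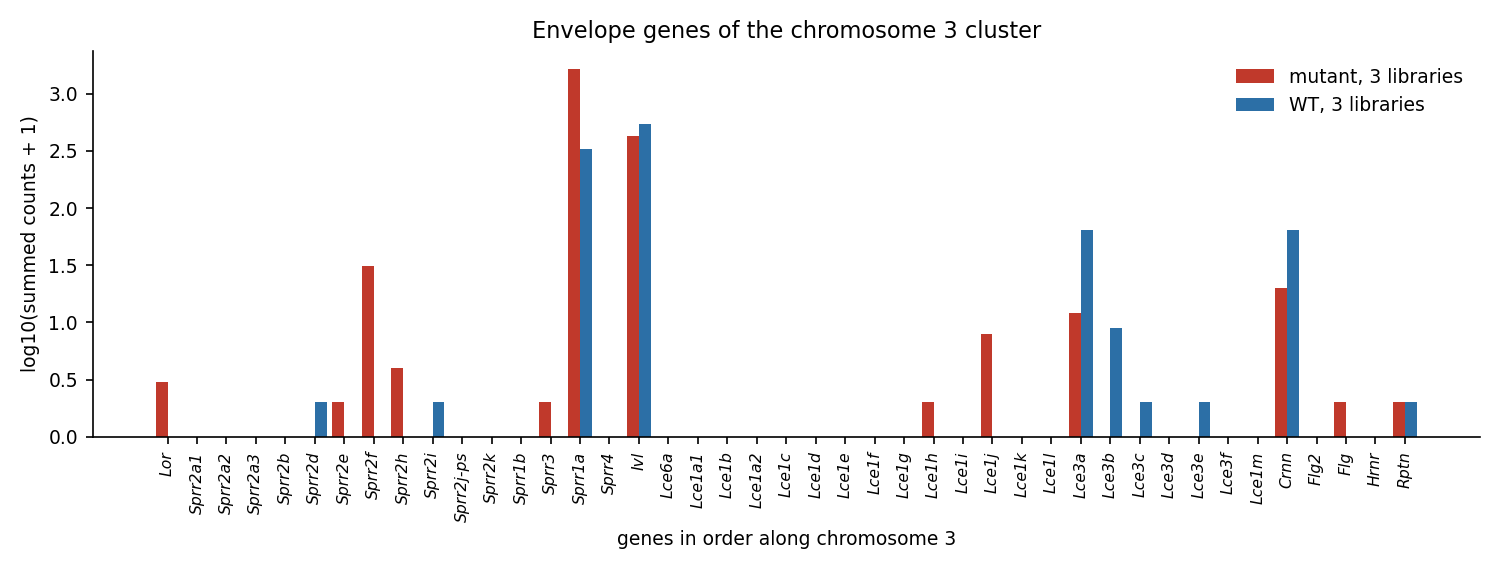
Counts of the 43 members on chromosome 3 summed over the 3 mutant (red) and the 3 WT (blue) libraries, as log10 of the sum plus 1, in gene order. Sprr1a and Ivl stand highest in both genotypes, and 25 of the 43 genes have no bar.

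The other genes of the complex and of envelope formation were taken from 5 lists, which were not tested as sets. Over all genes, 4.13% were called higher and 2.65% lower without a filter. With filterByExpr the shares were 7.73% and 5.38%. Among 21 other genes of the chromosome 3 complex, 17 had a count. With filterByExpr, 12 of them were tested, and 1 passed as higher and none as lower. Without a filter, 2 passed as higher and none as lower (median log2 fold change 0.29). Trichohyalin, encoded by Tchh and crosslinked by transglutaminases in hair follicles, had 22.8, 7.36 and 19.5 CPM in mutant libraries, against 1.35, 5.48 and 4.52 CPM in WT libraries. All mutant libraries were above all WT libraries (log2 fold change 2.13 ± 0.44, SE; edgeR adjusted p = 0.0058, and 0.025 with filterByExpr). S100a9, a neutrophil calcium-binding protein, was the other, with 0.301, 18.1 and 12.0 CPM in mutant libraries, against 1.74, 0.117 and 0 CPM in WT libraries. M1 lay below W1, and with filterByExpr S100a9 missed the threshold (edgeR adjusted p = 0.016, and 0.051 with filterByExpr).

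Of 34 transcription factors listed for roles in epidermal differentiation and envelope genes, all with counts, 4 passed as higher and 8 as lower (median log2 fold change -0.27). With filterByExpr, 32 were tested, and 5 passed as higher and 8 as lower. Barx2, a homeobox factor, had 78.1, 40.9 and 65.1 CPM in mutant libraries, against 3.37, 11.1 and 7.73 CPM in WT libraries (edgeR adjusted p = 1.76e-05). Satb1, a chromatin organizer that in mouse skin acts on the chromosome 3 complex, had 3.98, 1.56 and 2.83 CPM in mutant libraries, against 20.1, 15.6 and 21.6 CPM in WT libraries (3.18e-05). Neither gene's groups overlapped. The nuclear receptor Rora had 60.5, 53.9 and 49.6 CPM in mutant libraries, against 118, 118 and 132 CPM in WT libraries (0.00015), so it too fell with no overlap. The other genes that rose were Cebpa, at 55.1 ± 2.1 CPM in mutant and 24.1 ± 3.84 CPM in WT, Maf, at 15.6 ± 1.67 CPM in mutant and 4.86 ± 1.75 CPM in WT, and Ahr, at 43.8 ± 3.72 CPM in mutant and 26.2 ± 2.84 CPM in WT (SD, n = 3 each). Fos, Tfap2a, Klf4 and Fosl2 were among the others that fell; Fos and Fosl2 are AP-1 subunits, and Klf4 is a barrier factor of skin.

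Of 24 genes of the lipid envelope and its barrier, 22 had a count. With filterByExpr, 18 of them were tested, and 3 passed as higher and none as lower. Without a filter, 2 passed as higher and none as lower (median log2 fold change 0.48). Cers3, the ceramide synthase of very long acyl chains, had 55.1, 59.97 and 74.8 CPM in mutant libraries, against 30.5, 20.6 and 18.5 CPM in WT libraries (edgeR adjusted p = 0.00037). The other was Spink5, which is also on the list of proteases and inhibitors. Of those 27 genes, 25 had a count, 5 passed as higher and 2 as lower (median 0.22). With filterByExpr, 19 were tested, and 4 passed as higher and 2 as lower. Spink5, an inhibitor of kallikreins in skin, had 745, 841 and 795 CPM in mutant libraries, against 303, 227 and 173 CPM in WT libraries (7.92e-06). Both stood clear of WT in all mutant libraries. The kallikrein Klk8 had 6.93, 6.08 and 8.99 CPM in mutant libraries, against 0.225, 0.0583 and 0.316 CPM in WT libraries (8.71e-06). Serpinb2, a serine protease inhibitor, had 3.01, 5.13 and 9.71 CPM in mutant libraries, against 0.225, 0 and 0 CPM in WT libraries (0.00029); Klk13 and Slpi rose as well. The proteases Ctsl and Asprv1 fell without overlap. Cathepsin L, Ctsl, had 299.9, 286 and 262 CPM in mutant libraries, against 441, 523 and 420 CPM in WT libraries (0.0028). Asprv1, which in skin cuts profilaggrin, had 726, 798 and 791 CPM in mutant libraries, against 1071, 1169 and 1000 CPM in WT libraries (0.014).

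The last list held 19 desmosome and other proteins that are crosslinked into envelopes, all with counts. With filterByExpr, 18 of them were tested, and 1 passed as higher and 3 as lower. Without a filter, 2 passed as higher and 4 as lower (median log2 fold change -0.17). The 4 that fell build desmosomes, the junctions on which the plakins gather. The cadherin Dsc3 had 529, 499 and 488 CPM in mutant libraries, against 1455, 1470 and 1345 CPM in WT libraries (edgeR adjusted p = 8.29e-07). Dsg1a had 114, 117 and 55.3 CPM in mutant libraries, against 383, 420 and 377 CPM in WT libraries (1.95e-05). Its close paralog Dsg1b had 71.3, 55.3 and 61.4 CPM in mutant libraries, against 182, 133 and 137 CPM in WT libraries (0.00016), and reads may be split between these 2 genes. Desmoplakin, Dsp, itself a plakin but not a member by the rule, had 7504, 7539 and 7030 CPM in mutant libraries, against 17876, 11610 and 11290 CPM in WT libraries (0.00062). With filterByExpr Dsp missed the threshold (0.069). Anxa1 was higher, at 676 ± 44.6 CPM in mutant and 419 ± 101 CPM in WT (SD, n = 3 each). So was Dsg3, of the same gene family as Dsg1a, at 937 ± 78.4 CPM in mutant and 669 ± 121 CPM in WT. These calls are less firm: the list held 0 genes called higher at an adjusted p of 0.01, or without M1, M2 or M3.

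**Figure D5:**
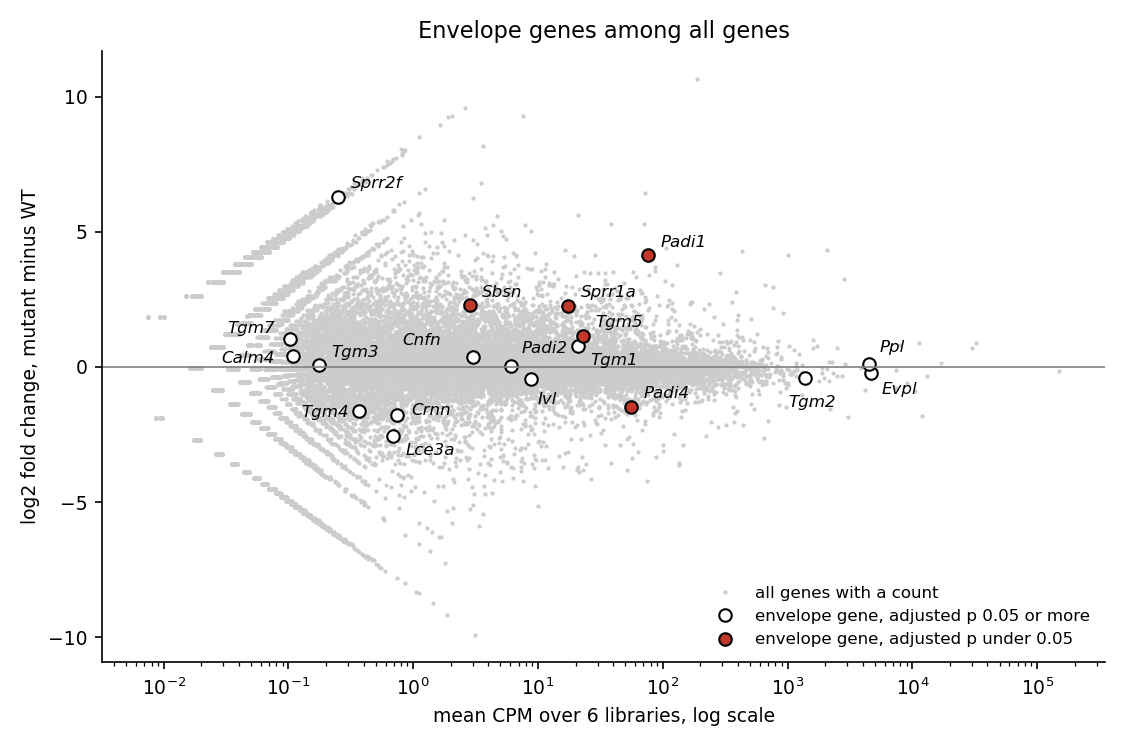
Log2 fold change, mutant minus WT, against mean CPM over the 6 libraries on a log scale, for all genes with a count (grey) and for members with at least 10 counts (circles; filled, adjusted p under 0.05). Padi1, Sprr1a, Sbsn and Tgm5 lie above 0 and Padi4 below it, while Evpl, Ppl and Tgm2, the most abundant members, lie near 0.

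Summed markers of other cell types that the tissue could hold differed between the genotypes for most lists but not all. Their part in the results above was not tested. Epidermal markers, 11 genes, summed to 1602 to 1700 CPM in mutant and 1810 to 2393 CPM in WT corneas, and none passed as higher and 1, Asprv1, as lower. Their sums were mostly Asprv1, Krt80 and Krt78. Of the markers that define cornified skin, Krt1 averaged 3.50 CPM in mutant and 4.49 CPM in WT corneas and Krt10 3.94 CPM in mutant and 3.50 CPM in WT corneas; Krt2, Lor and Flg had 1 or 2 counts over all libraries, and Serpinb12 had none. Of 12 hair follicle markers, 11 were matched and 2 reached 10 counts. They summed to 7.47 to 22.8 CPM in mutant and 1.80 to 5.54 CPM in WT corneas, nearly all of it Tchh in the mutant. The 12 conjunctival, goblet and mucosal markers, of which 8 rose (7 with filterByExpr), summed to 17035 to 18291 CPM in mutant and 5221 to 8767 CPM in WT corneas. The 9 corneal epithelial markers, of which 1 rose and 7 fell (5 with filterByExpr), summed to 17781 to 24673 CPM in mutant and 37638 to 51588 CPM in WT corneas. The 10 stromal keratocyte markers, of which 7 rose (6 with filterByExpr) and 1 fell, summed to 1154 to 4960 CPM in mutant and 447 to 707 CPM in WT corneas, highest in M1. Corneal endothelial markers summed to 1158 to 1549 CPM in mutant and 575 to 765 CPM in WT corneas. Vessel markers summed to 33.1 to 83.0 CPM in mutant and 0.674 to 31.3 CPM in WT corneas, lowest in W1. Muscle and melanocyte markers overlapped, at 55.2 to 131 CPM in mutant and 2.36 to 104 CPM in WT corneas, again lowest in W1. Sebaceous markers overlapped too, at 417 to 489 CPM in mutant and 386 to 825 CPM in WT corneas.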

How the data were processed

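Total RNA of each cornea sample went into a stranded kit for very small inputs and was read as pairs of 100 nucleotides, per the labels' protocols. The submitters' processing notes list HISAT2, HTSeq, Trim Galore, SAMtools and edgeR, with build GRCm38. Not given in the sources used here were tool versions, settings, annotation and whether HTSeq used the strand. What the authors deposited were raw counts per Ensembl gene, 1 file per library, with no scaling. The 5 summary lines of each file stayed out of library sizes and tests. Pairs without alignment were 30.1% of the total, those outside features 16.3%, multiply aligned pairs 3.50%, low-quality alignments 2.75% and ambiguous pairs 0.679%.

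Names and exons came from GENCODE M21, which matched 55240 of the 55421 IDs. Genotypes were compared in R 4.3.3 with edgeR 4.0.16, using TMM factors, all genes with at least 1 count and the quasi-likelihood test with genotype as its one term; p was adjusted by Benjamini-Hochberg over all genes, at 0.05. Fold changes are mutant over WT. CPM per kilobase is CPM divided by the annotated exon length. The scripts were tested on simulated data, in which the fit without a filter made more false calls than with filterByExpr (minimum count 10, minimum total 15), so the filtered p is given beside each called member. The lists were counted, not tested as sets; Krt85 and Pvrl3 on them were not matched.

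Values in every library are given for members called in either fit, for the members with the most counts in each role group and for the leading genes of each list; some list genes that this rule would name are not reported here. Members, lists and rules were chosen with earlier results of these data known. Alternatives changed the scaling (RLE, upper-quartile or no factors), the filter (filterByExpr, or 1 CPM in 3 libraries), the tool (DESeq2 1.42.0, limma-voom from limma 3.58.1 with or without quality weights, edgeR's earlier quasi-likelihood method), the genes (no mitochondrial or structural RNA), the covariates (sex), the threshold (0.01) and the libraries (each left out). Leaving out M1 and W1 together, and filterByExpr combined with the earlier method or with leaving out each library, were added after seeing the data. Chi-square per degree of freedom between libraries of 1 group was 17.8 to 53.9, so no library was taken as a repeat of another. Intervals and limits describe counting error alone, because reads are not independent molecules.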

Additional observations from a re-analysis of the deposited data

How the results depend on the processing

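Of 395 combinations of a member with a printed fold change and an alternative, 366 kept direction and side of the threshold. Tgm1, not called, passed in 4 of 25 alternative fits. Members called higher were 4, and 3 to 6 when 1 library was left out; members called lower were 1, but 0 to 1 when 1 library was left out, 0 with sex as a covariate and 0 without mutant replicate 1 and WT replicate 1. The log2 fold change of Cnfn reversed without W3 (-0.09, and -0.10 with filterByExpr), as did that of Ppl (-0.03 without W3; with filterByExpr -0.041 without W3 and -0.011 without W2, and 0.38 without W1); apart from the last, none of these passed. Padi2, near 0, reversed with quality weights (-0.28), with sex as a covariate (-0.17), without M1 and W1 together (-0.59), and without M1 (-0.18), M3 (-0.14) or W1 (-0.40), also with filterByExpr (-0.16, -0.14 and -0.38), was highest without W2 (0.64), and never passed. Without M1 and W1 together Cnfn was 1.34 (edgeR adjusted p = 0.26). The log2 ratio of summed Sprr CPM was 2.28, and 1.94 to 3.22 when 1 library was left out, highest without W1. Over all genes, 1186 were called higher, but 688 with sex as a covariate, 693 at adjusted p 0.01 and 592 to 1276 when 1 library was left out; 762 were called lower, but 433, 429 and 319 to 961 in the same settings. For the lists, other complex genes called higher were 2, but 0 with limma-voom and with filterByExpr plus the earlier quasi-likelihood method, 1 with filterByExpr, 1 CPM in 3 libraries, DESeq2, quality weights, sex or adjusted p 0.01, and 0 to 3 when 1 library was left out; called lower were 0, but 2 with DESeq2, 1 with quality weights or the earlier method and 0 to 1 when 1 library was left out. Transcription factors called higher were 4, but 7 with DESeq2; called lower were 8, but 5 with sex and 5 to 10 when 1 library was left out. Lipid genes called higher were 2, but 4 with 1 CPM in 3 libraries or the earlier method and 5 with quality weights; called lower were 0, but 1 with the earlier method. Proteases and inhibitors called higher were 5, but 3 with sex, without M1 and W1 or at adjusted p 0.01, and 3 to 5 when 1 library was left out; called lower were 2, but 1 with upper-quartile factors, the earlier method, sex or adjusted p 0.01, and 0 to 2 when 1 library was left out. Desmosome genes called higher were 2, but 1 with RLE or upper-quartile factors, filterByExpr (also with the earlier method), 1 CPM in 3 libraries or limma-voom, 0 with sex or adjusted p 0.01, 4 without M1 and W1, and 0 to 4 when 1 library was left out. The causes were not tested. Since the sex covariate marks M1 alone, its values do not separate sex from that library. No scaling moved the median log2 fold change of the genes kept by filterByExpr by over 0.1. No paired analysis was possible because the labels give the 2 genotypes no shared replicate numbers. At this depth a member with no counts over a group may still reach 0.0529 CPM in mutant or 0.0556 CPM in WT corneas.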
